A study of Mus musculus with 8 samples.

Results

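The genes described here are 10 members of the transforming growth factor beta (TGF-beta) superfamily and its secreted inhibitors: the TGF-beta ligand genes Tgfb1, Tgfb2 and Tgfb3, the bone morphogenetic protein (BMP) ligand genes Bmp2, Bmp4, Bmp6 and Bmp7, the activin A subunit gene Inhba, and the inhibitor genes Grem1 and Fst. They were chosen by name, and all 10 were found among the 35275 genes of the deposited table and were among the 15412 with enough counts to be tested. RNA sequencing of whole tumours gave their read counts in 8 mouse tumours. In every tumour, controls included, the labels give floxed Nf2 and floxed Cdkn2a, recombined by Cre recombinase from an adenovirus injected into the peritoneal cavity. Primary peritoneal tumours 13, 14A, 59 and 61 are labelled Pak2-null (Pak2 f/f in the genotype field, Pak2-/- in the title), a secondary tumour, 14B, carries the same genotype label with no site given, and primary peritoneal tumours 19, 20 and 127 are labelled Pak2 wild-type. The labels do not say which cells of the cavity took up the virus. Strain, age and the animal each tumour came from are not in the labels, so every p-value below measures the spread between these samples. The study asked what loss of Pak2, a kinase that acts downstream of Rac and Cdc42, does to tumours that lack Nf2.

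TGF-beta and activin ligands bind receptor kinases that phosphorylate SMAD2 and SMAD3, and BMP ligands bind related receptors that phosphorylate SMAD1, SMAD5 and SMAD9. TGF-beta is made in a latent form, released by integrins and proteases, and is known in tumours for driving fibroblasts and matrix and for holding back immune cells. Gremlin 1, the product of Grem1, binds and blocks BMPs, and follistatin, the product of Fst, binds and blocks activins and, less tightly, some BMPs.

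No member passed the quasi-likelihood test of edgeR (Benjamini-Hochberg adjusted over the 15412 genes), which called 11 genes, or 0.0714% of those tested. The adjusted p values of the members ran from 0.146 for Bmp4 to 0.772 for Bmp6 by that test. In the Pak2-null-labelled tumours, Bmp4 and Tgfb2 were lower than in every wild-type tumour and Bmp2 was higher than in every wild-type tumour. The groups thus did not overlap in 2 members in the lower direction, where 8.93% of all tested genes did not overlap. They did not overlap in 1 member in the higher direction, where the share of all tested genes was 5.07%. For Bmp2, the order of tumours 14A and 19 rested on the scaling. An unadjusted p under 0.05 was reached by 2 members that were lower (Bmp4 and Tgfb2), or 20% against 8.55% of all tested genes, and by 2 that were higher (Bmp2 and Grem1), or 20% against 4.39% of all tested genes. Log2 fold changes, taken as labelled Pak2-null minus wild-type, were below 0 in 6 members and above 0 in 4; their median was -1.23 against 0.06 over all tested genes. That median was -0.17 without tumour 19, -0.13 without tumour 127 and 0.29 without tumours 20 and 127, an alternative added after the data were seen, so it rested on single wild-type tumours. In bulk tumours, fewer cells of a type and less RNA per cell cannot be told apart, and this holds for every difference below.

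**Figure D1:**
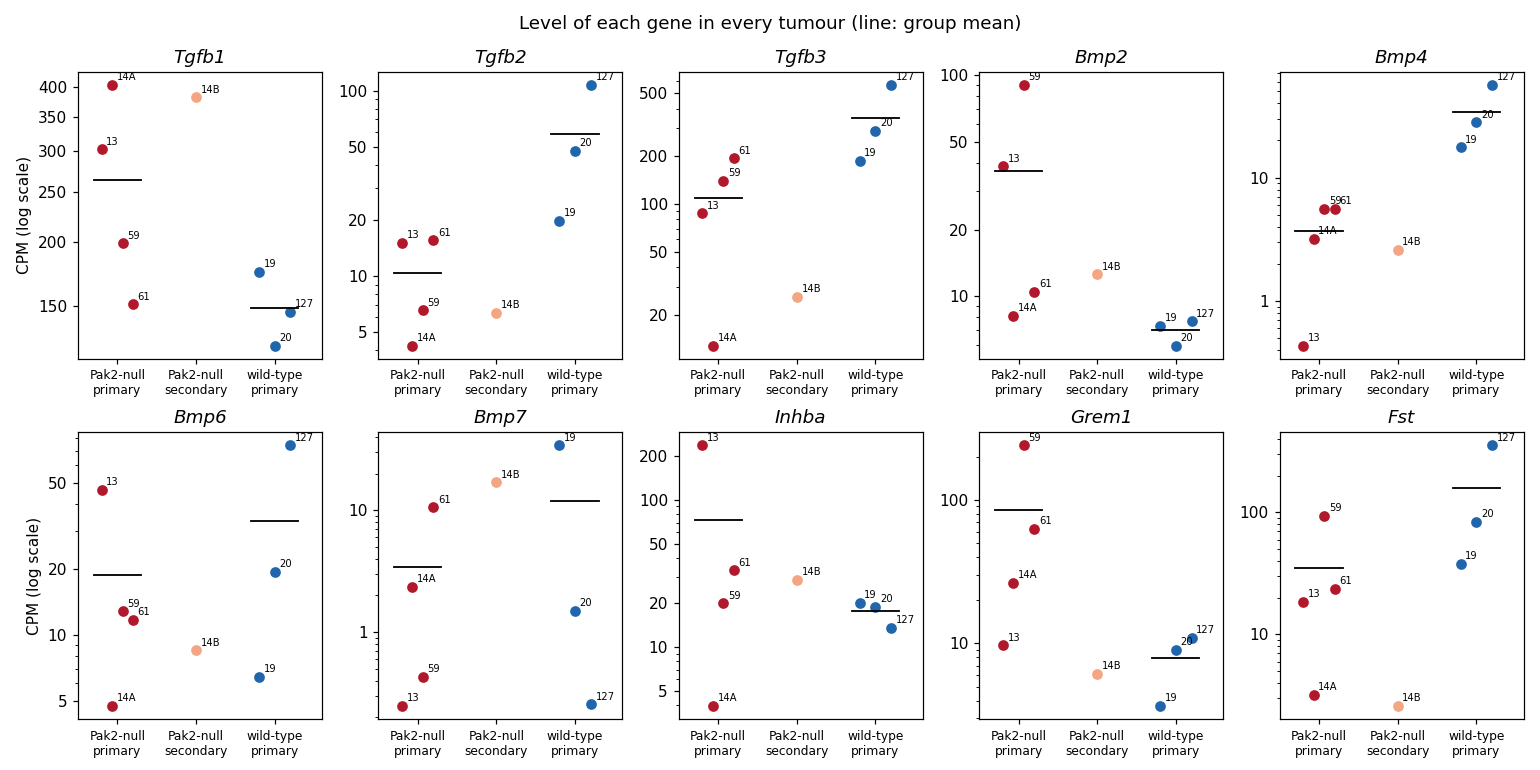
CPM (counts scaled to library size by TMM, log scale) of the 10 genes in each tumour, with the Pak2-null-labelled tumours at the left, the secondary tumour 14B in the middle and the wild-type tumours at the right of each panel; horizontal lines are group means. Bmp4 and Tgfb2 show no overlap, with Pak2-null-labelled tumours below, Bmp2 shows none with those tumours above, and Inhba stands at 235 CPM in tumour 13 alone.

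Depth lay between 13469851 counts (tumour 14B) and 20402401 counts (tumour 14A), and a gene with no counts could have been missed at up to 3 counts, which is 0.139 to 0.193 CPM for primary tumours and 0.311 CPM for 14B (a limit for counting error only). Pak2 transcripts were not lower in the Pak2-null-labelled tumours: they stood at 186, 238, 165 and 131 CPM in tumours 13, 14A, 59 and 61 and at 239 CPM in tumour 14B, against 128, 90.1 and 92.7 CPM in wild-type tumours 19, 20 and 127. Whole-gene counts cannot tell whether the floxed part is absent, so the labels are used as given. Summed over 9 skeletal muscle markers, transcripts reached 9.66 to 658 CPM in the Pak2-null-labelled primary tumours and 11.5 CPM in tumour 14B, against 2406, 26731 and 21040 CPM in wild-type tumours 19, 20 and 127. Tumours 14A and 14B stood apart from the other Pak2-null-labelled tumours, with 11842 and 89684 CPM of 5 exocrine pancreas markers. No other tumour exceeded 30.5 CPM of these. Tumours 14A and 14B also had the lowest sums of 7 fibroblast markers (1541 and 2584 CPM, against 12290 CPM or more elsewhere). Col1a1 and Col3a1 made up most of these sums, and Pdgfra, Dpt and Lum were lowest there too. Pi16 (34.1 and 28.7 CPM) was higher there than in tumours 13, 59 and 61 (3.84, 18.5 and 24.4 CPM). Dpp4 was highest of all in tumour 14A (35.3 CPM). By Spearman correlation across genes (0.962) the profiles of tumours 14A and 14B were the most alike of all pairs. By mean chi-square per gene (199) they were farther apart than several other pairs. Among these were tumours 20 and 127 (71.5), 59 and 61 (74.6), and Pak2-null-labelled tumour 59 and wild-type tumour 19 (134). Mesothelial markers, 10 in number, summed to 10.8 to 362 CPM in the Pak2-null-labelled primary tumours and 39.7 to 309 CPM in the wild-type tumours, with Calb2 at or under 0.308 CPM everywhere and tumour 13 at 1.11 CPM of Msln. The sums of endothelial, adipocyte, platelet, T and NK cell and B cell markers overlapped between the groups. For adipocyte markers these were 1.55, 15.7, 0.802 and 74.9 CPM in tumours 13, 14A, 59 and 61, against 274, 271 and 28.8 CPM in tumours 19, 20 and 127. Of single markers, Lep of the adipocyte list was higher in every wild-type tumour, and Klrb1c of the T and NK cell list was lower. Xist stood at 0.0619 to 1.33 CPM in the Pak2-null-labelled primary tumours and at 151, 459 and 26.6 CPM in wild-type tumours 19, 20 and 127, and Ddx3y, a gene of the Y chromosome, at 85.4 to 104 CPM against 1.62, 1.24 and 116 CPM, so the sex pattern moved with the label except in tumour 127, and its part in the results was not tested.

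Of the TGF-beta ligands, Tgfb1, the main form made by blood and immune cells, was the most evenly transcribed member, with a ratio of 3.22 between its highest and lowest tumour. It stood at 302, 404, 198 and 151 CPM in tumours 13, 14A, 59 and 61 and at 382 CPM in tumour 14B, against 174, 125 and 146 CPM in wild-type tumours 19, 20 and 127. Tumours 13, 14A and 59 lay above every wild-type tumour, and tumour 61 lay within the wild-type range. The log2 fold change was 0.85 (SE 0.38) and did not pass (edgeR quasi-likelihood adjusted p = 0.412); without tumour 14A it was 0.57. The summed level of 6 macrophage markers, all detected in every tumour, was 2514, 6241, 2814 and 1809 CPM in tumours 13, 14A, 59 and 61 and 5712 CPM in tumour 14B, against 2087, 1853 and 904 CPM in tumours 19, 20 and 127. C1qa and C1qb, subunits of complement C1q, made up most of the sum in tumour 14A (2259 and 2973 CPM), while Mrc1, a mannose receptor gene of tissue macrophages, was lower there (48.8 CPM) than in any other tumour and Csf1r, a growth factor receptor gene of macrophages, stood at 368 CPM against 510, 274 and 178 CPM in tumours 19, 20 and 127. The remaining markers, Cd68 and Fcgr1, were highest in tumours 14A (492 and 99.9 CPM) and 14B (499 and 92.9 CPM). Elsewhere they reached at most 167 and 75.9 CPM. The part of macrophages in the Tgfb1 values was not tested.

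Tgfb2, a ligand needed in heart, eye and skeletal development, stood at 15.1, 4.21, 6.54 and 15.6 CPM in tumours 13, 14A, 59 and 61 and at 6.32 CPM in tumour 14B, against 19.9, 47.5 and 108 CPM in wild-type tumours 19, 20 and 127. Every Pak2-null-labelled tumour was below every wild-type tumour, with tumour 61 the nearest to wild-type tumour 19. Means were 10.4 ± 5.84 CPM in the Pak2-null-labelled tumours and 58.3 ± 44.8 CPM in the wild-type tumours (SD, n = 4 and 3), a log2 fold change of -2.47 (SE 0.67) that did not pass (edgeR quasi-likelihood adjusted p = 0.164). Without tumour 127 it was -1.70. DESeq2 gave Tgfb2 an adjusted p of 0.0118, and the adjusted p stayed above 0.05 in every other alternative tried.

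Tgfb3, a ligand of palate and lung development that is also made by mesenchymal cells, stood at 87.2, 12.7, 140 and 195 CPM in tumours 13, 14A, 59 and 61 and at 25.9 CPM in tumour 14B, against 188, 291 and 565 CPM in wild-type tumours 19, 20 and 127. Only tumour 61 reached the wild-type range, just above tumour 19, and the lowest levels were those of tumours 14A and 14B, which also had the lowest fibroblast marker sums. Its log2 fold change of -1.66 (SE 0.80) did not pass (edgeR quasi-likelihood adjusted p = 0.443).

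Promoter sequences are shown for the 2 members that lay below every wild-type tumour, Tgfb2 and Bmp4, and for the member with the largest positive log2 fold change, Grem1, so that genes on opposite sides of 0 can be set side by side. RefSeq (GRCm38.p6) held a promoter for 6 of the 10 members, and each line gives the 250 bases before the start site, 5′ to 3′ on the strand of the gene, from chr1:186705990-186706239 (minus strand) for Tgfb2, chr14:46390670-46390919 (minus strand) for Bmp4 and chr2:113758649-113758898 (minus strand) for Grem1.
Tgfb2: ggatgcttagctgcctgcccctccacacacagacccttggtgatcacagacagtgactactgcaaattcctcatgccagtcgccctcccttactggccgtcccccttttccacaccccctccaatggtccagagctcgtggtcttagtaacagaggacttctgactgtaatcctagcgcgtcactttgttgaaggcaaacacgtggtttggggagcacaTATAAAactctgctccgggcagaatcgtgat
Bmp4: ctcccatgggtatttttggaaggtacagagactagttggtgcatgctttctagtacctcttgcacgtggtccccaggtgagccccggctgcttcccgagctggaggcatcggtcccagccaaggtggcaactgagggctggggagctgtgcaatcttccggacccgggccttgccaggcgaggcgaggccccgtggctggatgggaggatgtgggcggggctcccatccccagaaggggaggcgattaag
Grem1: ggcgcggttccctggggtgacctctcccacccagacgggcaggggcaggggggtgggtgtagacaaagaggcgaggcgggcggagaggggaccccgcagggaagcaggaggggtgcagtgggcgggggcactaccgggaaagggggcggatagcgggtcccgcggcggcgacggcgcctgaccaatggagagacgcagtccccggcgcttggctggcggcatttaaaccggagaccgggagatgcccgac
Capitals mark the TATA box letters TATAAA, found 31 bases before the start of Tgfb2, and among the other 5 of these promoters in that of Inhba alone, 91 bases before its start. On either strand these letters occur in 12.4% of 32851 RefSeq promoters searched over the same length. The letters TGGGTGGTC (bound by GLI factors), ATCAAAG (TCF/LEF) and GGAATG (TEAD) were found in none of the 6 members, and in 0.225%, 3.21% and 12.6% of all promoters. Guanine and cytosine made up 53.6% of the Tgfb2, 63.2% of the Bmp4 and 72.0% of the Grem1 window, against a median of 52.4% over all promoters.

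The mixture of TGF-beta ligand transcripts leaned to Tgfb1 in the Pak2-null-labelled tumours. Per kilobase of gene length, Tgfb1 made up 82.8, 97.6, 68.1 and 53.3% of the transcripts of the 3 TGF-beta genes in tumours 13, 14A, 59 and 61 and 95.1% in tumour 14B, against 57.3, 37.5 and 26.1% in wild-type tumours 19, 20 and 127. Tgfb3 made up 15.3, 1.98, 30.8 and 44.2% in the 4 Pak2-null-labelled tumours and 4.15% in tumour 14B, against 39.7, 55.9 and 65.0% in the wild-type tumours. Tgfb1 thus held most of the mixture in every Pak2-null-labelled tumour and in wild-type tumour 19, and Tgfb3 held most of it in tumours 20 and 127, the 2 with the highest muscle marker sums. Tgfb2 was the smallest part throughout, at 0.469 to 2.53% in the Pak2-null-labelled primary tumours and 3.01 to 8.86% in the wild-type tumours, which did not overlap. The summed level of the 3 genes did overlap, at 130 to 190 CPM per kilobase in the Pak2-null-labelled primary tumours and 140 to 257 CPM per kilobase in the wild-type tumours. These shares were described and not tested.

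**Figure D2:**
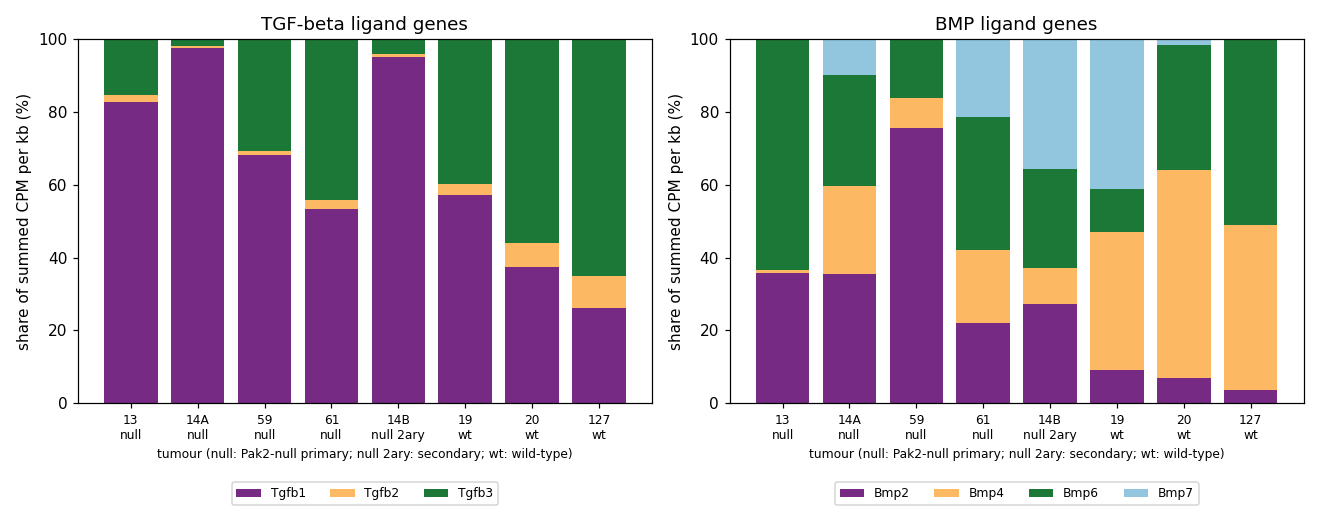
Share of each gene (percent of summed CPM per kilobase) among the 3 TGF-beta ligand genes (left) and among the 4 BMP ligand genes (right) in each tumour, with the Pak2-null-labelled tumours first and the wild-type tumours (wt) last. Tgfb1 makes up 53.3% or more in every Pak2-null-labelled tumour, against 26.1 to 57.3% in the wild-type tumours, so these shares overlap. Bmp2 makes up 21.9% or more in every Pak2-null-labelled tumour, against at most 9.13% in the wild-type tumours.

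Among the BMP ligands, Bmp4, which patterns mesoderm and acts in many adult stromal cells, had the lowest p of the members. It stood at 0.433, 3.19, 5.62 and 5.60 CPM in tumours 13, 14A, 59 and 61 and at 2.59 CPM in tumour 14B, against 17.6, 28.0 and 56.4 CPM in wild-type tumours 19, 20 and 127. The groups did not overlap, and tumour 13, with 7 reads, was far below the rest. Means were 3.71 ± 2.46 CPM in the Pak2-null-labelled tumours and 34.0 ± 20.1 CPM in the wild-type tumours (SD, n = 4 and 3), a log2 fold change of -3.18 (SE 0.81) that did not pass (edgeR quasi-likelihood adjusted p = 0.146). Leaving out 1 tumour at a time gave -3.50 to -2.62. DESeq2 passed Bmp4, with an adjusted p of 0.00271, and no other alternative did.

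Bmp2, a strong inducer of bone and cartilage that also acts on endothelium and macrophages, lay on the other side. Its level was 38.6, 8.12, 90.2 and 10.5 CPM in tumours 13, 14A, 59 and 61 and 12.5 CPM in tumour 14B, against 7.33, 5.96 and 7.70 CPM in wild-type tumours 19, 20 and 127. The wild-type tumours were close together, every Pak2-null-labelled tumour lay above them, and tumours 14A and 61 did so narrowly while tumours 59 and 13 were far higher. The log2 fold change was 2.42 (SE 0.88), or 1.45 without tumour 59. It did not pass (adjusted p = 0.304 by edgeR quasi-likelihood and 0.0521 by DESeq2). By limma-voom it was 1.71 (adjusted p = 0.574).

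Bmp6, known in the liver as the signal that sets hepcidin to the iron supply, stood at 46.3, 4.73, 12.8 and 11.7 CPM in tumours 13, 14A, 59 and 61 and at 8.50 CPM in tumour 14B, against 6.44, 19.6 and 74.2 CPM in wild-type tumours 19, 20 and 127. Both groups spread over nearly the same range. The log2 fold change of -0.79 (SE 0.96; edgeR quasi-likelihood adjusted p = 0.772) turned to 0.54 without tumour 127.

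Bmp7, a ligand of kidney development, was among the most uneven members, with a ratio of 138 between its highest and lowest tumour, against 137 for Fst and 130.1 for Bmp4. It stood at 0.248, 2.36, 0.432 and 10.6 CPM in tumours 13, 14A, 59 and 61 and at 16.9 CPM in tumour 14B, against 34.2, 1.49 and 0.257 CPM in wild-type tumours 19, 20 and 127. Tumours 13, 59 and 127 had 4 to 7 reads, and tumours 61, 14B and 19 had 163 to 737. The log2 fold change was -1.81 (SE 1.69; edgeR quasi-likelihood adjusted p = 0.693) and 1.96 without tumour 19.

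The mixture of BMP ligands separated the groups at both ends. Bmp2 made up 35.8, 35.5, 75.7 and 21.9% of the 4 BMP genes per kilobase in tumours 13, 14A, 59 and 61 and 27.3% in tumour 14B, against 9.13, 7.06 and 3.59% in wild-type tumours 19, 20 and 127. Bmp4 made up 0.693, 24.0, 8.11 and 20.3% in the 4 Pak2-null-labelled tumours and 9.72% in tumour 14B, against 37.8, 57.1 and 45.3% in the wild-type tumours. Neither share overlapped between the groups, which the levels of Bmp2 and Bmp4 alone already fix in part. Bmp6 was the leading BMP gene in tumours 13, 61 and 127 and Bmp7 in tumours 14B and 19, so the shares of these 2 genes did not follow the labels.

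Inhba encodes the subunit that pairs with itself to form activin A, a ligand linked to fibrosis and wound repair. It stood at 235, 3.96, 19.8 and 33.0 CPM in tumours 13, 14A, 59 and 61 and at 28.5 CPM in tumour 14B, against 19.9, 18.7 and 13.5 CPM in wild-type tumours 19, 20 and 127. Tumour 13 stood alone, tumour 14A was the lowest of all, tumour 59 lay within the wild-type range, and tumours 61 and 14B lay above it. The log2 fold change was 2.10 (SE 1.23; edgeR quasi-likelihood adjusted p = 0.531), and without tumour 13 it was 0.14. Inhbb, which encodes the other common activin subunit, stood at 57.6 ± 50.0 CPM in the Pak2-null-labelled tumours and 48.1 ± 19.7 CPM in the wild-type tumours (SD, n = 4 and 3).

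Grem1, the BMP antagonist gene, had the largest positive log2 fold change of the members. It stood at 9.72, 26.3, 240.0 and 62.7 CPM in tumours 13, 14A, 59 and 61 and at 6.12 CPM in tumour 14B, against 3.66, 9.06 and 11.0 CPM in wild-type tumours 19, 20 and 127. Tumours 14A, 59 and 61 lay above every wild-type tumour, while tumour 13 lay between wild-type tumours 20 and 127 and tumour 14B between 19 and 20. Means were 84.7 ± 106 CPM in the Pak2-null-labelled tumours and 7.90 ± 3.79 CPM in the wild-type tumours (SD, n = 4 and 3), a log2 fold change of 3.45 (SE 1.14) that did not pass (edgeR quasi-likelihood adjusted p = 0.252). It was 2.06 without tumour 59. DESeq2 passed Grem1 (adjusted p = 0.0102), and no other alternative did.

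Fst, the activin antagonist gene, ran the other way. It stood at 18.5, 3.19, 93.7 and 23.7 CPM in tumours 13, 14A, 59 and 61 and at 2.59 CPM in tumour 14B, against 37.8, 83.6 and 356 CPM in wild-type tumours 19, 20 and 127. Tumour 59 lay within the wild-type range and the other Pak2-null-labelled tumours lay below it. Its log2 fold change of -2.17 (SE 1.12) did not pass (edgeR quasi-likelihood adjusted p = 0.478) and was -0.80 without tumour 127.

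**Figure D3:**
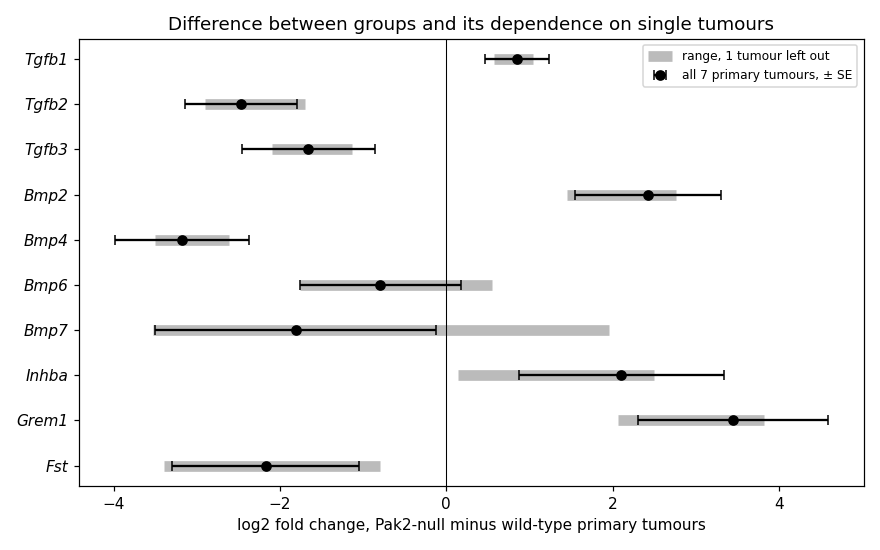
Log2 fold change of each member, labelled Pak2-null minus wild-type primary tumours (points with SE, 4 and 3 tumours), and the range over fits that leave out 1 tumour at a time (grey bars). The grey bars cross 0 for Bmp6 and Bmp7, and that of Inhba reaches down to 0.14.

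Skeletal muscle transcripts moved with several of these genes. All 9 muscle markers were higher in each wild-type tumour than in any Pak2-null-labelled tumour, and none was at 0 in a primary tumour: Acta1, the actin of muscle fibres, stood at 2.48, 3.08, 99.8 and 253 CPM in tumours 13, 14A, 59 and 61, against 1155, 9190 and 7698 CPM in tumours 19, 20 and 127. Bmp4, Tgfb2, Tgfb3 and Fst were highest or next to highest in wild-type tumours 20 and 127, except that tumour 59 exceeded tumour 20 for Fst. With both of those tumours left out, the log2 fold changes were -2.20 for Bmp4, -0.89 for Tgfb2, -0.75 for Tgfb3 and -0.08 for Fst, and those of Bmp2 and Grem1 were 2.38 and 4.57. The single wild-type tumour in that fit is assumed to vary like the others. Tumour 19, which it keeps, still had 2406 CPM of muscle markers, and the part of muscle tissue in the differences was not tested.

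**Figure D4:**
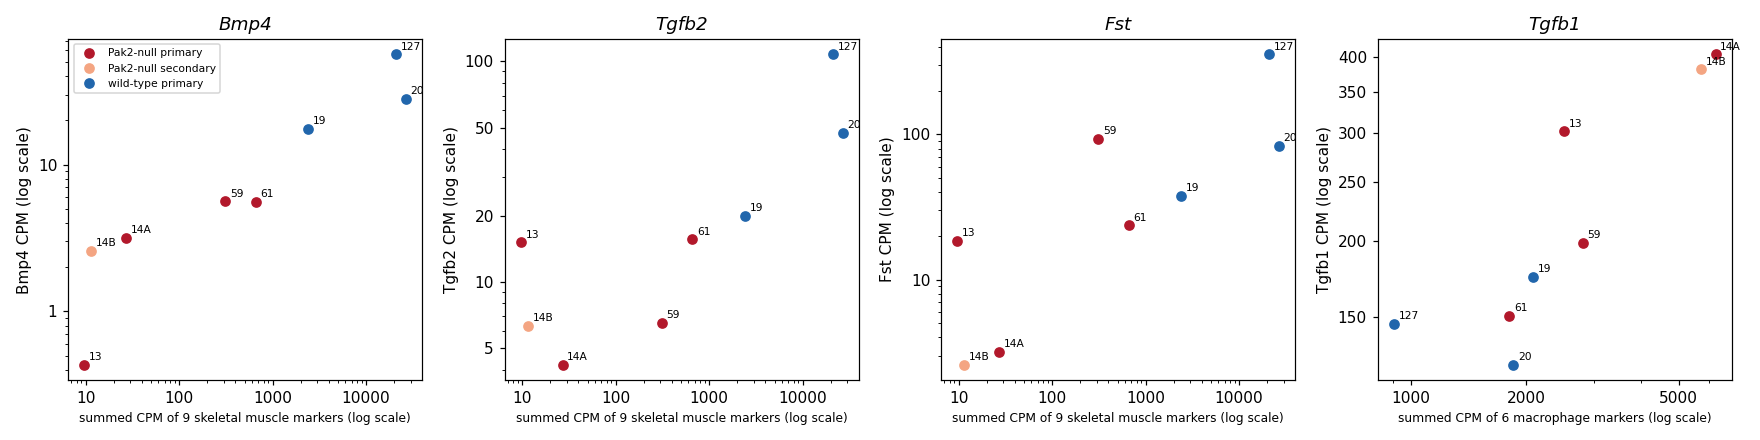
Level of Bmp4, Tgfb2 and Fst against the summed CPM of 9 skeletal muscle markers, and of Tgfb1 against that of 6 macrophage markers, in 8 tumours (both axes log scale). Wild-type tumours 20 and 127 lie at the right for the muscle markers (26731 and 21040 CPM) and tumours 14A and 14B at the right for the macrophage markers (6241 and 5712 CPM).

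Levels can be compared between genes per kilobase of gene length. In the Pak2-null-labelled tumours the mean order ran Tgfb1 (121 ± 51.8 CPM per kilobase), Inhba (37.3 ± 55.6), Tgfb3 (32.1 ± 22.9), Grem1 (20.4 ± 25.5), Fst (14.9 ± 17.2), Bmp2 (10.4 ± 10.7), Bmp6 (7.84 ± 7.72), Tgfb2 (2.19 ± 1.24), Bmp4 (1.80 ± 1.19) and Bmp7 (0.927 ± 1.33; SD, n = 4). In the wild-type tumours it ran Tgfb3 (103 ± 57.6 CPM per kilobase), Tgfb1 (68.3 ± 11.3), Fst (68.1 ± 73.6), Bmp4 (16.5 ± 9.73), Bmp6 (13.9 ± 14.9), Tgfb2 (12.3 ± 9.48), Inhba (8.88 ± 1.76), Bmp7 (3.26 ± 5.24), Bmp2 (1.97 ± 0.258) and Grem1 (1.90 ± 0.914; SD, n = 3). Neighbours in these orders differed by less than the larger of their SDs, except Tgfb1 and Inhba in the Pak2-null-labelled tumours and Inhba and Bmp7 in the wild-type tumours. Tgfb1 was the highest member in tumours 13, 14A, 59, 61, 14B and 19, the second in tumour 20 and the third in tumour 127. Grem1 ranked 8, 2, 2 and 4 in tumours 13, 14A, 59 and 61, against 10, 8 and 8 in wild-type tumours 19, 20 and 127, and Bmp2 ranked 5, 4, 5 and 8 against 9 in all 3 wild-type tumours.

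The single secondary tumour, 14B, allows no test of its own group. Its counts gave Tgfb1 382 CPM (95% Poisson interval 370 to 394), Inhba 28.5 CPM (25.2 to 32.1) and Bmp2 12.5 CPM (10.4 to 15.0), each above every wild-type tumour. It gave Bmp4 2.59 CPM (1.68 to 3.83), Fst 2.59 CPM (1.68 to 3.83), Tgfb2 6.32 CPM (4.84 to 8.12) and Tgfb3 25.9 CPM (22.8 to 29.3), each below every wild-type tumour. These intervals cover counting error only. Against tumour 14A, the closest profile by Spearman correlation, Inhba and Bmp7 were higher in 14B (28.5 and 16.9 CPM, against 3.96 and 2.36 CPM) and Grem1 was lower (6.12 CPM, against 26.3 CPM).

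The 8 further lists cover the rest of the pathway, with 88 distinct tested genes that are not members. By the adjusted edgeR quasi-likelihood test none of them passed; 16 (18.2%) were lower at an unadjusted p under 0.05, where 8.55% of all tested genes were, and 1 (1.14%) was higher, where 4.39% were. The lists were chosen with earlier results of these data known, and their counts are descriptions.

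Of 13 other ligand genes tested, 6 were lower and none higher at an unadjusted p under 0.05, where 8.55% and 4.39% of all tested genes were. The median log2 fold change of the 13 genes was -1.28. Gdf3, a ligand of early embryos and fat tissue, stood at 0.929, 1.08, 0.247 and 0.289 CPM in tumours 13, 14A, 59 and 61 and at 0.415 CPM in tumour 14B, against 11.5, 17.8 and 5.33 CPM in wild-type tumours 19, 20 and 127. Gdf6, a ligand of joint and skull development, averaged 3.69 ± 2.88 CPM in the Pak2-null-labelled tumours and 46.7 ± 38.1 CPM in the wild-type tumours, and Bmp5, a ligand of cartilage, 0.421 ± 0.352 CPM and 4.89 ± 1.59 CPM (SD, n = 4 and 3). Log2 fold changes were -4.14 (SE 0.73) for Gdf3, -3.64 (SE 0.77) for Gdf6 and -3.50 (SE 0.82) for Bmp5, with edgeR quasi-likelihood adjusted p of 0.104, 0.118 and 0.127. Mstn, which encodes myostatin, the brake on muscle growth made by muscle itself, had at most 0.123 CPM in the Pak2-null-labelled primary tumours, under the limit of 3 counts, against 1.25, 13.5 and 4.17 CPM in tumours 19, 20 and 127.

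Of 16 other inhibitor and binding protein genes tested, 2 were lower and none higher at an unadjusted p under 0.05. Over all tested genes 8.55% were lower and 4.39% higher at that p. The median log2 fold change of the 16 genes was -0.16. Nog encodes noggin, which binds BMP2, BMP4 and BMP7 and keeps them from their receptors. It stood at 0.124, 0.103, 0.494 and 0.520 CPM in tumours 13, 14A, 59 and 61 and had no counts in tumour 14B (which allows up to 0.311 CPM), against 13.3, 14.0 and 12.8 CPM in wild-type tumours 19, 20 and 127. The wild-type tumours were nearly equal, with muscle marker sums of 2406, 26731 and 21040 CPM, and the part of muscle tissue in this difference was not tested. The log2 fold change of -5.38 (SE 0.67) just missed the threshold (edgeR quasi-likelihood adjusted p = 0.0544); it passed with tumour 14B added (0.0404), by limma-voom (0.0418) and by DESeq2 (1.16e-17), and ran from -5.74 to -5.09 over the alternatives. The fit with tumour 14B counts 14A and 14B, which share a tumour number and had similar profiles, as separate samples of 1 group. Chrdl1, which encodes a chordin-like BMP antagonist, averaged 7.56 ± 5.62 CPM in the Pak2-null-labelled tumours and 142 ± 144 CPM in the wild-type tumours (SD, n = 4 and 3), a log2 fold change of -4.20 (edgeR quasi-likelihood adjusted p = 0.141) that was -0.99 without tumours 20 and 127. Chrd (chordin) and Bmper, which encodes a regulator of BMP4, differed by -1.85 (SE 0.80) and -1.34 (SE 0.67) on the log2 scale; Chrd was at 0.03 without tumours 20 and 127 and Bmper at -0.87 without tumour 19. Of the BMP antagonist genes, Grem1 thus had a higher mean in the Pak2-null-labelled tumours and Nog and Chrdl1 a lower one. None of these 3 differences passed edgeR's quasi-likelihood test. DESeq2, which passed 1196 of 23641 genes, passed all 3 (adjusted p = 0.0102, 1.16e-17 and 0.000620).

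Among 12 genes of the latent complex and its activation, the median log2 fold change was 0.60. At an unadjusted p under 0.05, 1 gene was lower and 1 higher, where 8.55% and 4.39% of all tested genes were. The lower one was Itgb6, which encodes the epithelial integrin subunit that frees latent TGF-beta, at 0.316 ± 0.485 CPM in the Pak2-null-labelled tumours and 10.6 ± 7.49 CPM in the wild-type tumours. The higher one was its partner subunit gene Itgav, at 330, 203, 189 and 173 CPM in tumours 13, 14A, 59 and 61, against 128, 123 and 128 CPM in tumours 19, 20 and 127. Log2 fold changes were -5.02 (SE 1.34; -2.59 without tumours 20 and 127) for Itgb6 and 0.85 (SE 0.29) for Itgav, with edgeR quasi-likelihood adjusted p of 0.159 and 0.268. On the log2 scale Lrrc32, whose product holds latent TGF-beta on the cell surface, differed by 0.87 (SE 0.52) and Fbn1, the fibrillin that anchors it in matrix, by 1.15 (SE 0.79), and they were at 0.18 for Lrrc32 without tumours 20 and 127 and 0.27 for Fbn1 without tumour 13.

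Receptor genes lay on both sides of 0. None of 8 TGF-beta and activin receptor genes reached an unadjusted p under 0.05, and of 8 BMP receptor and co-receptor genes 1 did, in the lower direction, where 8.55% of all tested genes were lower at that p. The median log2 fold changes were 0.06 and 0.04. Tgfbr2, the receptor that binds TGF-beta first, averaged 570.0 ± 77.5 CPM in the Pak2-null-labelled tumours and 423 ± 65.5 CPM in the wild-type tumours (log2 fold change 0.45, SE 0.26). On the log2 scale Tgfbr3, the co-receptor betaglycan, was at 0.85 (SE 0.60). The activin receptor genes Acvr2a and Acvr1c were at -1.12 (SE 0.55) and -2.41 (SE 1.49). Without tumours 20 and 127 Acvr2a turned to 0.62 and Tgfbr3 was at 0.30, and Acvr1c was at -1.33 without tumour 20. The 1 co-receptor gene was Hfe2, which encodes hemojuvelin, a BMP co-receptor of muscle and liver, at 1.57 ± 1.57 CPM in the Pak2-null-labelled tumours and 169 ± 134 CPM in the wild-type tumours, with tumour 19 at 14.2 CPM and tumours 20 and 127 at 251 and 242 CPM. Its log2 fold change was -6.73 (SE 1.36; edgeR quasi-likelihood adjusted p = 0.117), or -3.13 without tumours 20 and 127. Bmpr2, Bmpr1b and Rgmb, 2 receptors and a co-receptor of BMPs, were at 0.30 (SE 0.40), -1.38 (SE 0.75) and 0.99 (SE 0.59), and they were at 0.00 for Bmpr2 without tumour 13, 0.04 for Bmpr1b without tumours 20 and 127 and 0.49 for Rgmb without tumour 59.

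Of 14 genes for SMADs and their regulators, 2 were lower and none higher at an unadjusted p under 0.05. Among all tested genes those shares were 8.55% and 4.39%. The median log2 fold change of the 14 genes was 0.14. Smad6 encodes an inhibitory SMAD that BMP signals induce and that blocks BMP receptors. It stood at 7.06, 3.03, 6.30 and 5.14 CPM in tumours 13, 14A, 59 and 61 and at 4.98 CPM in tumour 14B, against 20.9, 11.5 and 31.6 CPM in wild-type tumours 19, 20 and 127, a log2 fold change of -1.96 (SE 0.45; edgeR quasi-likelihood adjusted p = 0.125). The groups did not overlap. Smad9, a BMP-responsive SMAD gene, averaged 0.750 ± 0.503 CPM in the Pak2-null-labelled tumours and 2.78 ± 1.09 CPM in the wild-type tumours. Smad7, the inhibitory SMAD that TGF-beta induces, was nearly equal, at 35.4 ± 8.88 CPM in the Pak2-null-labelled tumours and 36.0 ± 11.6 CPM in the wild-type tumours (SD, n = 4 and 3). Smad2, which carries the TGF-beta signal, and Smurf1, a ubiquitin ligase for SMADs, differed by 0.27 (SE 0.20) and 0.85 (SE 0.44) on the log2 scale, and Smurf1 was at 0.40 without tumour 13.

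Of 11 BMP target genes tested, 5 were lower and none higher at an unadjusted p under 0.05, and the list had a median of -0.54 on the log2 scale. Of 13 TGF-beta and activin target genes 1 was lower and none higher at that p, with a median of 0.03. The shares over all tested genes were 8.55% lower and 4.39% higher. The 5 BMP targets were Smad6 and Smad9, counted in the SMAD list too, with Atoh8, Hey1 and Dlx5. Atoh8, a transcription factor gene of endothelium and liver, averaged 8.83 ± 4.68 CPM in the Pak2-null-labelled tumours and 29.9 ± 10.4 CPM in the wild-type tumours, and Hey1, a repressor gene shared with Notch signalling, 5.70 ± 3.53 CPM and 26.0 ± 14.7 CPM (SD, n = 4 and 3). Log2 fold changes were -1.73 (SE 0.50) for Atoh8 and -2.17 (SE 0.64) for Hey1, with edgeR quasi-likelihood adjusted p of 0.184 and 0.192. Dlx5, a homeobox gene of bone, rested on tumour 19, with -3.92 (SE 1.48) over all tumours and -0.51 without it. The classical BMP targets Id1, Id2 and Id3, named after their values were seen, differed by -0.43 (SE 0.69), -0.35 (SE 0.36) and -0.54 (SE 0.59) on the log2 scale.

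Cdkn1a, the cell cycle inhibitor gene that both TGF-beta and p53 induce, was the 1 TGF-beta target below 0.05, at 125 ± 18.1 CPM in the Pak2-null-labelled tumours and 400 ± 285 CPM in the wild-type tumours (log2 fold change -1.66, SE 0.47; edgeR quasi-likelihood adjusted p = 0.180), and it was at -0.40 without tumours 20 and 127. Acta2, the smooth muscle actin of myofibroblasts, differed by -1.81 (SE 0.78) on the log2 scale, or -1.12 without tumours 20 and 127. Cdkn2b, an inhibitor of cyclin D kinases next to Cdkn2a, was at 1.68 (SE 0.74), or 0.89 without tumour 13. TGF-beta targets therefore lay on both sides of 0.

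**Figure D5:**
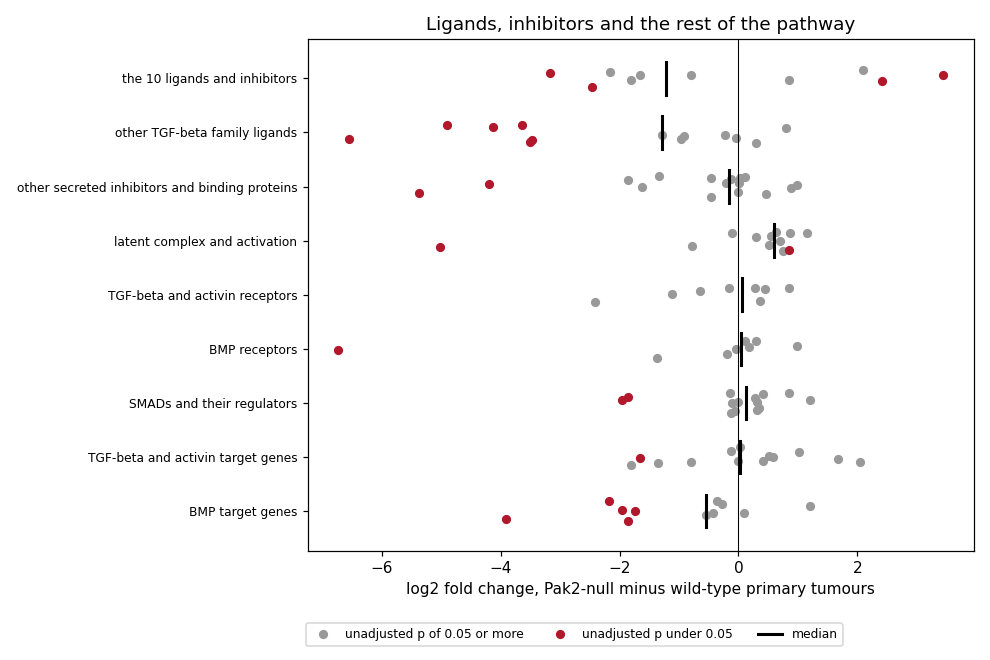
Log2 fold changes (labelled Pak2-null minus wild-type primary tumours) of the 10 members and of the tested genes of 8 pathway lists; each point is a gene, red points have an unadjusted p under 0.05, and black lines are medians. The lists of other ligands and BMP target genes have medians of -1.28 and -0.54, and the receptor lists have medians of 0.06 and 0.04.

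Genes whose pattern over the 8 tumours was most like that of each member were taken by Pearson correlation of log2 CPM among tested genes of sufficient level. Ribosomal protein genes (Rps and Rpl) and genes with provisional symbols (Gm with digits, or ending in Rik) were left out of this search. They were chosen for their correlation, so its size is a description. Itga7 and Fmod, an integrin gene of muscle and a matrix proteoglycan gene, followed Tgfb2 (r = 0.98 for both): Itga7 stood at 11.5, 3.34, 7.59 and 17.7 CPM in tumours 13, 14A, 59 and 61 and at 6.12 CPM in tumour 14B, against 26.2, 182 and 324 CPM in tumours 19, 20 and 127. Islr and Tmtc1 followed Bmp4 (0.98 for both), with Islr at 10.3, 22.6, 63.3 and 68.6 CPM in the 4 Pak2-null-labelled tumours and 27.6 CPM in tumour 14B, against 163, 320 and 715 CPM in the wild-type tumours. Gnb2 and Dnm2 followed Tgfb1 (0.99 for both), Efs and Ephb3 followed Tgfb3 (0.99 for both), and Lmo7 and Ccdc157 followed Fst (0.98 and 0.97). For Bmp2 they were Ncdn and Patl1 (0.97 and 0.94), for Bmp6 Ibtk (0.98) and for Bmp7 Cyb5rl and Mrps9 (0.92 for both). Mical2 and Arl13b followed Inhba (0.98 and 0.97), with Mical2 at 714 CPM in tumour 13 and at most 258 CPM elsewhere, and Ahctf1 and Rpain followed Grem1 (0.96 for both).

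In the deposited table (GRCm38) the members lie on 6 chromosomes. Tgfb1 (ENSMUSG00000002603) is on chromosome 7, 25687002 to 25705077, Tgfb2 (ENSMUSG00000039239) on chromosome 1, 186623186 to 186705992, and Tgfb3 (ENSMUSG00000021253) on chromosome 12, 86056744 to 86079041. Bmp2 (ENSMUSG00000027358) is on chromosome 2, 133552159 to 133562885, Bmp4 (ENSMUSG00000021835) on chromosome 14, 46383520 to 46390669, Bmp6 (ENSMUSG00000039004) on chromosome 13, 38345716 to 38499728, and Bmp7 (ENSMUSG00000008999) on chromosome 2, 172868012 to 172940321. Inhba (ENSMUSG00000041324) is on chromosome 13, 16011851 to 16027211, Grem1 (ENSMUSG00000074934) on chromosome 2, 113746164 to 113758646, and Fst (ENSMUSG00000021765) on chromosome 13, 114452262 to 114458730. Genes on the opposite strand overlap 3 of them: Ttll5, with 142 to 796 counts a tumour, overlaps Tgfb3, and low-count genes overlap Tgfb2 (at most 4 counts) and Bmp4 (at most 4 and 30 counts). The strand setting of the counting is not given in the sources used here, so shared reads cannot be told apart in these 3 genes.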

How the data were processed

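Total RNA of 8 mouse tumours was made into mRNA-enriched Illumina libraries, per the labels' protocols. The authors deposited raw counts of reads, not normalised, for each gene beside its length; STAR and HTSeq with GRCm38 and mm10 were used, per the submitters' processing notes, and their versions and the annotation release and strand setting used are not known from these notes. Counts of the 4 primary tumours labelled Pak2-null and the 3 wild-type tumours were compared by edgeR 4.0.16 under R 4.3.3 (TMM, quasi-likelihood test, Benjamini-Hochberg adjustment at 0.05), after filterByExpr (minimum count 10, minimum total count 15). SE is the absolute log2 fold change over the square root of its F. CPM uses TMM factors of all 8 tumours over the tested genes, and levels per kilobase divide CPM by the deposited length. Tumour 14B was left out of the main comparison.

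Members and lists were chosen with earlier results of these data known. Named genes are the members, the targeted and sex genes, the 4 genes of each pathway list with the lowest p, and the 2 genes most correlated with each member (mean log2 CPM of at least 3, prior count 2, without Rps, Rpl, Gm-number and Rik symbols). Alternatives were 3 other normalisations, no filter, DESeq2 1.42.0, limma-voom (limma 3.58.1), tumour 14B added, each primary tumour left out, TPM in place of CPM per kilobase, and, added after the data were seen, tumours 20 and 127 left out. Adgre1, of the macrophage list, was not found under that name. Of the genes this rule names, 2 are not reported here.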

Additional observations from a re-analysis of the deposited data

Results flagged for a closer look

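Inhba in tumour 13 stood at 235 CPM, while the other primary tumours labelled Pak2-null reached 3.96, 19.8 and 33.0 CPM: its gap to the nearest of them, 0.874 of the whole range, exceeds the limit for a sample that stands apart in a group of 4. Chance sets such a mark in about 1 in 20 groups of normally distributed values, and 10 genes were examined. The ratio was taken on CPM, which need not follow that distribution, so the rate is not known here. As log2 CPM the values were 7.88, 2.03, 4.32 and 5.05 in tumours 13, 14A, 59 and 61, and the ratio was not taken on that scale. Tumour 14B, a single secondary tumour left out of the main comparison, was above every wild-type tumour for Tgfb1 (382 CPM), Bmp2 (12.5 CPM) and Inhba (28.5 CPM).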

How the results depend on the processing

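No member passed edgeR's quasi-likelihood test over all 7 primary tumours (4 at an unadjusted p under 0.05, beside 1995 of all 15412 tested genes). DESeq2 passed 3 members (Bmp4, Tgfb2 and Grem1), with 7 members at an unadjusted p under 0.05. Of all 23641 genes in the DESeq2 fit, 1196 passed and 2909 were under 0.05 unadjusted. In every other alternative, each with edgeR or limma-voom, 0 members passed. At an unadjusted p under 0.05 were 2 members by limma-voom, beside 1879 of 15412 genes, and 6 with tumour 14B added, beside 2534 of 15564 genes. The fit with tumour 14B counts it and 14A as separate samples. Other pathway genes passed in 15 cases by DESeq2, in 1 by limma-voom (Nog) and in 3 with tumour 14B added (Gdf3, Mstn and Nog). Among those of DESeq2 were Gdf3, Gdf6, Bmp5, Mstn, Nog, Chrdl1, Itgb6, Hfe2, Smad6, Atoh8, Hey1 and Cdkn1a, all lower in the Pak2-null-labelled tumours. Over all genes of each fit, 11 of 15412 passed in the main fit and 1196 of 23641 by DESeq2. By limma-voom 25 of 15412 passed, and with tumour 14B added 191 of 15564 did. Leaving out 1 tumour at a time gave 0 to 59 genes: 59 without tumour 19, 8 without 14A, 1 without 127 and 0 without 13, 59, 61 or 20. Direction turned for Bmp6, which ran from -1.76 to 0.54 with 1 tumour left out (0.54 without tumour 127) and was 1.61 without tumours 20 and 127, and for Bmp7, which ran from -3.53 to 1.96 (1.96 without tumour 19). The other 8 members kept the sign of their log2 fold change in all 15 alternatives. With TPM, Fst ranked 2 and Tgfb1 ranked 3 in the wild-type tumours. The causes were not tested. No paired analysis was possible because the groups share no replicate numbers. With 4 tumours against 3 and reads as few as 4 for Bmp7 and 7 for Bmp4, differences of the size seen for Bmp6, Bmp7 and Inhba lay within the spread between tumours.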

Other observations

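Tumour 13 had the highest level of several genes of this pathway beside Inhba; these were picked after their values were seen and carry no test. Fn1, the fibronectin gene, stood at 39431 CPM in tumour 13, against at most 6214 CPM in any other tumour. Fstl1, a secreted follistatin-like glycoprotein gene, stood at 7060 CPM, against at most 2243 CPM. Ltbp1, which encodes a latent TGF-beta binding protein, stood at 452 CPM, against at most 181 CPM. Cdkn2b stood at 213 CPM, against at most 70.8 CPM. Bmp4, at 0.433 CPM, was lower in tumour 13 than in any other tumour.

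Thbs1, which encodes thrombospondin 1, an activator of latent TGF-beta, was lowest in the tumours numbered 14: it stood at 769, 72.4, 491 and 339 CPM in tumours 13, 14A, 59 and 61 and at 164 CPM in tumour 14B, against 816, 711 and 674 CPM in wild-type tumours 19, 20 and 127. Tgfbr1, the signalling receptor of TGF-beta, was highest in the same tumours: it stood at 125, 214, 106 and 79.7 CPM in tumours 13, 14A, 59 and 61 and at 220 CPM in tumour 14B, against 67.2, 115 and 129 CPM in wild-type tumours 19, 20 and 127. Both genes were picked after their values were seen. Tumours 14A and 14B share a tumour number and also had the highest pancreas and lowest fibroblast marker sums, whose part in these levels was not tested.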
